A study of Mus musculus with 13 samples.

Results

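UG26-1B6 is a stromal cell clone from the urogenital ridge of the midgestation mouse embryo that is used as a feeder layer for blood stem cells. The comparison set 2 arrays of this stroma after 3 days (72 h) of co-culture against 3 arrays of the same clone collected before co-culture (day 0), which makes 5 of the 13 arrays of the series. The arrays were chosen by their titles. LSK cells, the blood cells added to the stroma, are a fraction rich in stem and progenitor cells that lacks lineage markers and carries Sca-1 and c-Kit. The day 3 stroma had been grown to confluence and irradiated with 30 Gy before LSK cells were seeded onto it. Day 0 cells were detached with trypsin and washed. A stroma irradiation protocol of 30 Gy is listed for every array of the series, day 0 included. Whether day 0 cells had already received it when they were collected was not given in the sources used here. How blood cells were removed from the stroma before lysis and the strain of the LSK donor mice were not given either. LSK cells, time in culture after plating and detachment with trypsin all differ between the groups, and new medium and irradiation may differ too. Their shares in a change cannot be told apart from these 5 arrays. All groups grew in medium with fetal calf and horse serum. Every array comes from the same clone. The other 8 arrays of the series were a control 24 h after new medium was given (n = 2) and co-cultures of 1 day (n = 3) and 2 days (n = 3). Titles name the replicates as biological and the design text as technical, so the p-values here measure only the spread between these samples.

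Stromal feeder cells keep blood stem and progenitor cells alive through secreted cytokines such as CXCL12 and stem cell factor, adhesion molecules such as VCAM1, Wnt ligands and their inhibitors, and the matrix they lay down. LSK cells in culture divide and differentiate, and their myeloid offspring make large amounts of granule proteases, lysozyme and macrophage lysosomal proteins. Metallothioneins are small cysteine-rich proteins that bind zinc and copper and are induced by metals and glucocorticoids. The comparison asks which genes of the harvested layer differ after 3 days with LSK cells, in a study of how factors from this stroma maintain blood stem cells.

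The 5 arrays were not alike in quality. Spiked-in RNAs with poly-A tails (24 control probe sets) averaged 3.64, 4.20 and 6.01 on the log2 scale on the day 0 arrays, and 9.04 and 12.02 on the day 3 arrays. The 3' probe set of Gapdh, a control for RNA quality and labelling, exceeded its 5' probe set by 2.67 to 3.82 at day 0, and on the day 3 arrays by 2.43 (replicate 1) and 5.79 (replicate 2). The beta-actin probe sets gave 2.29 to 3.10 at day 0, and 2.40 and 6.67 at day 3. Across genes, which are not independent replicates, the day 3 arrays correlated at 0.935 with each other. Each day 0 array correlated at 0.973 or more with the nearest array of its group. Spike-in level was higher on both day 3 arrays and the 3' to 5' differences on day 3 replicate 2, and their part in the results was not tested. One array outside the comparison, day 2 replicate 1, enters the shared estimate of spread and stood further apart, with a Gapdh difference of 8.96 and a highest correlation of 0.785. The main counts are therefore given with and without it.

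After 3 days with LSK cells, genes of granulocyte precursors and macrophages were the largest rises, and metallothioneins, a fatty acid carrier and a serine synthesis enzyme rose too. Of these, the metallothionein genes Mt1 and Mt2, the carrier gene Fabp4 and the enzyme gene Phgdh were as high or nearly as high in the medium control, without LSK cells. The granulocyte genes Ctsg and Mpo were not. The largest falls were in the matricellular gene Ccn3, the matrix genes Abi3bp and Fbn2, the coagulation receptor gene Thbd, Zfp874a, Ccser2 and Klhl42. Abi3bp and Thbd were about as low in the medium control, and Zfp874a, Ccser2 and Klhl42 were not. A call here means an adjusted p under 0.05 in limma, a linear model fitted to the deposited log2 values of all 13 arrays. Of 12205 genes tested, 100 were called (0.819%), 43 higher (0.352%) and 57 lower (0.467%), and 98 of them differed at least 2-fold. Without day 2 replicate 1 in the fit, 939 genes were called (7.69%), 386 higher (3.16%) and 553 lower (4.53%), and all 100 were among them. At an unadjusted p under 0.05, 5.87% of all genes were higher and 7.92% lower, and the list counts given here are to be read against these shares. The median change over all genes was 0.00. The day 3 and day 0 arrays did not overlap for any of the 100 called genes, and over all genes tested they did not overlap for 4339 (35.6%), of which 1836 were higher and 2503 lower. In 9 of the rises every day 0 array, and in 3 of the falls every day 3 array, was at its probe set's lowest value or under the filter value of 2.38, so those changes are lower bounds. The filter asked for 2 arrays above that value, and 3 rises (Clec10a, Itgbl1 and Inpp5d) passed it only through the day 3 arrays and 1 fall (Qpct) only through the day 0 arrays, so these had to differ and their calls are no support. With 2 arrays against 3 an exact two-sided permutation test cannot go below 0.1, so single genes rest on the fit across all genes.

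**Figure D1:**
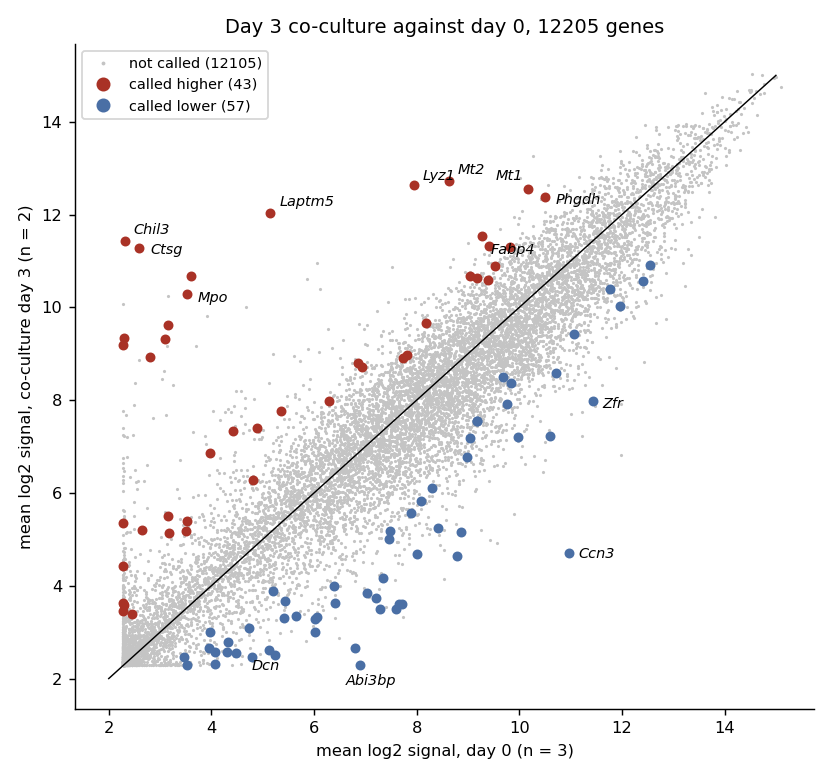
Mean log2 signal of each of the 12205 tested genes at day 0 (horizontal axis, n = 3) and at day 3 of co-culture (vertical axis, n = 2), with the line of equal signal. Red points are the 43 genes called higher and blue points the 57 called lower, and the rises reach furthest from the line among genes with little signal at day 0.

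Of the granule genes of neutrophil precursors, Ctsg, Mpo and Prtn3 were near the lowest value before co-culture and abundant at day 3. Others stayed near it at day 3, with Elane at 2.58 and 2.28 and Ngp at 2.62 and 2.68. Ctsg, which encodes cathepsin G, read 2.61, 2.61 and 2.56 on the day 0 arrays and 11.58 and 10.97 on the day 3 arrays. Mpo, which encodes myeloperoxidase, sat at 3.53 on all 3 day 0 arrays, the lowest value of its probe set, and read 9.86 and 10.70 at day 3. Prtn3, which encodes proteinase 3, read 2.71, 3.37 and 3.37 and then 10.37 and 8.87. Both day 3 arrays lay more than 5 log2 units above every day 0 array for each of Ctsg, Mpo and Prtn3, with no overlap. Ctsg rose by 8.68 ± 0.91 (SE, adjusted p = 0.00874), Mpo by at least 6.75 ± 0.93 (adjusted p = 0.0233) and Prtn3 by 6.47 ± 1.14 (adjusted p = 0.0407). Stroma given new medium and no LSK cells lay at 2.61 and 3.19 for Ctsg, at 3.53 on both arrays for Mpo, and at 2.71 and 2.83 for Prtn3. Against that control the same 3 genes were higher at day 3 by 8.38 ± 1.00 (adjusted p = 0.00722), by at least 6.75 ± 1.02 (adjusted p = 0.0142) and by 6.85 ± 1.25 (adjusted p = 0.0223). In bulk samples such as these, a change in the number of cells of a type and a change in RNA per cell cannot be told apart.

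The stretch of genome around the starts of Ctsg, Mpo and Prtn3 is shown because these genes rose together. Each sequence holds 250 bases before the RefSeq start and 30 bases after it, in build GRCm38.p6 and in the direction of transcription. Capitals mark matches, on either strand, to ACCACA, the core bound by Runx factors, and to GAGGAA, a core of PU.1 sites.
Ctsg, chr14:56102545-56102824 on the minus strand: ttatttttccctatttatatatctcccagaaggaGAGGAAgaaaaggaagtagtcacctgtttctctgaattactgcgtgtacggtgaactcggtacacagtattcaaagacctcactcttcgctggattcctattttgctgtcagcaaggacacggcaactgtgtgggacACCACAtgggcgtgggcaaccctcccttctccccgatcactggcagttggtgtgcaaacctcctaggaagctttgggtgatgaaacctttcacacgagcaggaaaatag
Mpo, chr11:87793534-87793813 on the plus strand: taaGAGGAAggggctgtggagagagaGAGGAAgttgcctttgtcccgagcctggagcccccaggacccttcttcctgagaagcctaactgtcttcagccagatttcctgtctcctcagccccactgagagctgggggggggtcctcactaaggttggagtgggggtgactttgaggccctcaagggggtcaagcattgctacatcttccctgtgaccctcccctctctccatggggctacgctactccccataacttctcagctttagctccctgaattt
Prtn3, chr10:79879417-79879696 on the plus strand: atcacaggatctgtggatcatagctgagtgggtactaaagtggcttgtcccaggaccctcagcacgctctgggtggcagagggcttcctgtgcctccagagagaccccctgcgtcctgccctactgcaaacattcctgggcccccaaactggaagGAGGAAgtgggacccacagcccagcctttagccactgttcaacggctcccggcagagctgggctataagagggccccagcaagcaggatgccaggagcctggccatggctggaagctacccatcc
Of 32851 promoter windows of this length in the RefSeq table, 15.6% held ACCACA, 26.0% held GAGGAA and 3.99% held both. The Ctsg window held 1 match to each, the Mpo window 2 matches to GAGGAA and the Prtn3 window 1 match to GAGGAA. A match describes the letters and is not evidence of binding, and a window without one says nothing about the factor.

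Some genes of macrophages and of leukocytes in general rose as well, and others did not. Of monocyte and macrophage markers, picked after their values were seen, Itgam and Ccr2 read 2.28 on both day 3 arrays and C1qa 2.35 and 2.28. C1qb (6.38 and 2.28) and Mrc1 (5.73 and 2.29) were above their day 0 value of 2.28 mainly on day 3 replicate 1. Chil3, a chitinase-like protein secreted by myeloid cells, had the largest change of all called genes, from 2.36, 2.28 and 2.29 at day 0 to 9.97 and 12.89 at day 3 (at least 9.12 ± 1.52, adjusted p = 0.0379). Tyrobp, the DAP12 signalling adaptor of myeloid and NK cells, went from 2.29, 2.28 and 2.29 to 8.12 and 10.58 (at least 7.06 ± 1.32, adjusted p = 0.0494). Mpeg1, a pore-forming protein of macrophages, was at 2.28 on all 3 day 0 arrays and at 9.29 and 9.08 at day 3 (at least 6.90 ± 0.99, adjusted p = 0.0233). The day 3 arrays differed little for Mpeg1 and by more than 2 log2 units for Chil3 and Tyrobp, with replicate 2 the higher. Ctss, the lysosomal protease cathepsin S of antigen-presenting cells, read 2.91, 4.84 and 3.06 and then 9.89 and 11.48 (7.08 ± 1.04, adjusted p = 0.0233). Srgn, the granule proteoglycan serglycin, read 3.00, 3.39 and 2.92 and then 8.20 and 10.44 (6.22 ± 1.14, adjusted p = 0.0465). Laptm5, a lysosomal membrane protein of blood cells, was uneven before co-culture, at 5.12, 3.49 and 6.83, and read 11.29 and 12.77 at day 3 (6.88 ± 1.25, adjusted p = 0.0456). Of its other probe sets that passed the filter, the largest change was 1.95. Lyz1, a lysozyme gene, already read 7.66 to 8.14 at day 0 and reached 11.72 and 13.55 (4.68 ± 0.85, adjusted p = 0.0433). Lyz1 and its near-identical neighbour Lyz2 may share signal, and Lyz2 differed by 5.33 ± 1.13 without passing (adjusted p = 0.0731). The uncharacterised gene AI662270 rose from 2.67, 2.88 and 2.88 to 8.38 and 9.49 (6.13 ± 1.05, adjusted p = 0.0389).

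Other genes of leukocytes, picked after their values were seen, reached lower levels at day 3. Adam8, a surface metalloprotease of leukocytes, rose from 3.40 to 4.25 at day 0 to 6.42 and 7.29 (2.89 ± 0.45, adjusted p = 0.0287). Lpxn, the adhesion adaptor leupaxin, rose from 2.60 to 2.68 to 4.64 and 5.78 (2.57 ± 0.44, adjusted p = 0.0389). Clec10a, a lectin of macrophages and dendritic cells, was at 2.28 on all 11 arrays outside day 3 and at 3.84 and 4.99 at day 3, at least 2.14 higher. Inpp5d, which encodes the SHIP1 phosphatase of blood cells, was at 2.28 on all day 0 arrays and at 3.27 and 3.63 at day 3, at least 1.16 higher. Both entered the test only through the day 3 arrays, so their values are a description. Clec10a and Inpp5d are the dimmest of these, close to the lowest value of the table even at day 3.

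**Figure D2:**
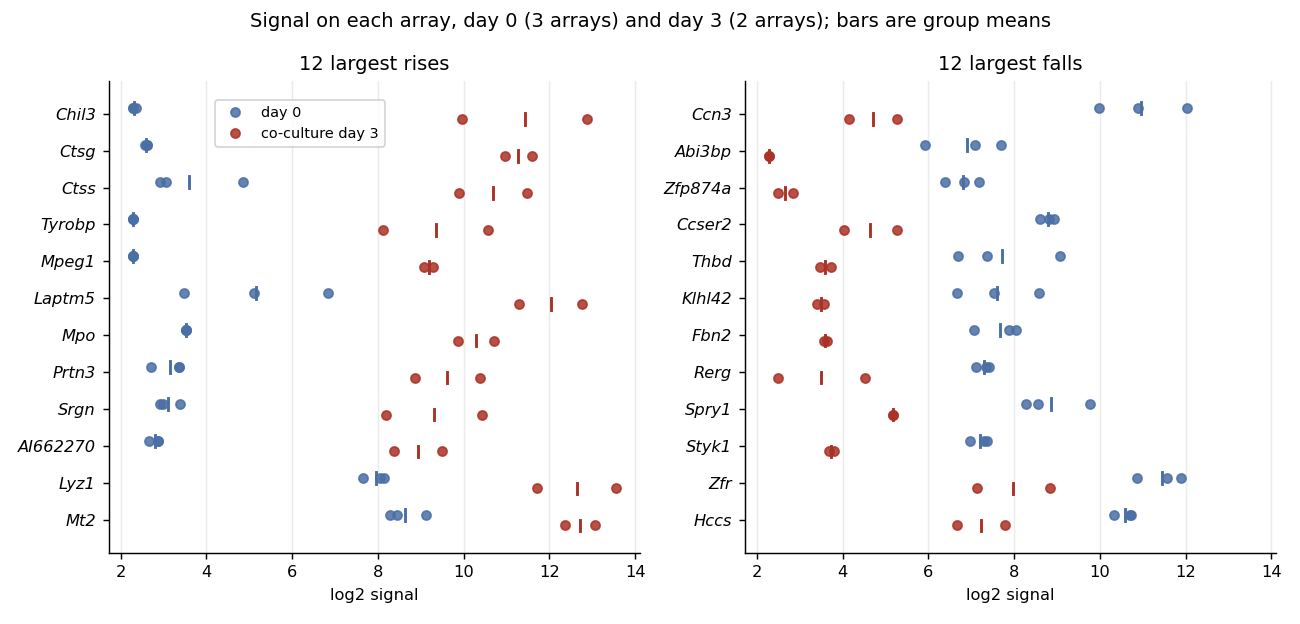
Log2 signal (horizontal axis) on each day 0 array (blue, n = 3) and each day 3 co-culture array (red, n = 2) for the 12 genes with the largest rises (left) and the 12 with the largest falls (right), with a bar at each group mean. The groups do not overlap for any of the 24 genes, and for Chil3, Tyrobp, Mpeg1 and Mpo the day 0 arrays sit at or next to their lowest value.

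The marker lists for blood cells gave the same genes in context. Of 39 listed granulocyte and monocyte markers, 34 were on the array and 29 passed the filter, which a gene at its lowest value at day 0 could do only through other groups. Of these 29, 5 rose (Ctsg, Tyrobp, Mpo, Prtn3 and Lyz1), 0 fell and 24 were not called, with a median change of 2.05 beside 0.00 over all genes and a range from 0.00 (Csf3r) to 8.68. Members at their lowest value on all day 0 arrays could not fall, so the 0 falls and the high median are a description and no support. Without day 2 replicate 1 in the fit, 15 rose and 0 fell. Those added included, picked after their values were seen, the neutrophil alarmin S100a8 (4.41 ± 0.18 in that fit, adjusted p = 2.34e-05), the Fc receptor Fcgr3 (4.85 ± 0.40, adjusted p = 0.00106) and the lectin Clec4d (5.56 ± 0.74, adjusted p = 0.00677). The neutrophil elastase gene Elane differed by 0.15 and the monocyte receptor gene Cd14 by 0.15, neither called. Summed over the 34 markers, linear signal ran from 594.1 to 819.1 on the day 0 arrays, from 448.2 to 491 in the medium control and from 10860 to 22240 at day 3. Between 24 and 26 of the 34 markers were at their lowest value or under the filter value on each day 0 array, and 9 to 11 at day 3.

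Fewer markers of stem and progenitor cells were called. Of 22 tested, of 31 listed, 1 rose (Laptm5) and 0 fell, with a median change of 0.85, and without day 2 replicate 1 there were 6 higher (Laptm5, Ptprc, Myb, Coro1a, Lcp1 and Vav1) and 2 lower (Meis1 and Mecom). Summed linear signal over the 29 on the array ran from 4695 to 7623 at day 0 and from 9248 to 13420 at day 3. That sum follows its brightest members at day 3, which were Laptm5 (11.29 and 12.77), Procr (11.85 and 10.84) and Hoxa9 (10.69 and 10.78). Procr (10.36 to 11.66) and Hoxa9 (10.84 to 11.69) were about as bright at day 0, so the higher sum was mainly that of Laptm5. Ptprc, the gene of CD45, a phosphatase on all leukocytes, was at 2.28 on all day 0 arrays and at 5.34 and 9.18 at day 3, a difference of at least 4.98 ± 1.29 that was not called (adjusted p = 0.125), but passed without day 2 replicate 1 (adjusted p = 0.0195). Myb, a transcription factor of blood progenitors, was at 2.47 on all day 0 arrays and at 5.65 and 8.87 at day 3, a difference of at least 4.79 ± 1.62 (adjusted p = 0.218, and 0.0104 without day 2 replicate 1). The actin-binding protein genes Coro1a (4.92 ± 1.22, adjusted p = 0.0474) and Lcp1 (4.16 ± 0.67, adjusted p = 0.012) and the signalling gene Vav1 (2.03 ± 0.22, adjusted p = 0.0039) passed in that fit too, as did the lower homeobox gene Meis1 (-1.37 ± 0.28, adjusted p = 0.0271) and the lower zinc-finger gene Mecom (-2.01 ± 0.39, adjusted p = 0.0214). Cd34, a progenitor surface glycoprotein, read 2.94, 4.17 and 2.45 and then 2.44 and 3.96 (0.01 ± 1.38, adjusted p = 1), with full overlap. Kit, which encodes the receptor by which LSK cells are sorted, read 2.28 and 2.38 at day 3 and was not tested. Pf4, platelet factor 4, was at 3.16 on the day 0 arrays and at 10.15 and 10.32 at day 3. Its difference of at least 7.07 ± 1.88 was not called (adjusted p = 0.133) and passed without day 2 replicate 1 (adjusted p = 0.0151). The day 2 arrays, which enter the shared spread, read 12.34 on that replicate, 3.74 and 8.75. Of 10 tested erythroid and megakaryocyte markers 0 were called in limma, with 1 higher at an unadjusted p under 0.05, and 2 (Pf4 and Nfe2) were higher without day 2 replicate 1. The 3 mast cell, 4 lymphoid and 4 endothelial markers tested gave 0 calls in limma and 0 at an unadjusted p under 0.05, and the 4 epithelial markers gave 0 and 1. The part of blood cell RNA in the other changes at day 3 was not tested.

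The metallothionein genes Mt1 and Mt2 both rose, and Mt2 had the smallest adjusted p of all genes. Mt2 read 9.13, 8.45 and 8.29 at day 0 and 13.07 and 12.37 at day 3, a rise of 4.09 ± 0.31 (adjusted p = 0.00277). Mt1 read 10.41, 10.37 and 9.73 and then 12.69 and 12.39, a rise of 2.37 ± 0.34 (adjusted p = 0.0233), while another Mt1 probe set gave 0.92. For both genes the 2 day 3 arrays lay above all 3 day 0 arrays. In the medium control, Mt2 read 12.51 and 12.57 and Mt1 11.98 and 11.88, close to day 3. Day 3 differed from that control by 0.18 ± 0.34 for Mt2 (adjusted p = 0.906) and by 0.61 ± 0.38 for Mt1 (adjusted p = 0.442).

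The windows around the starts of Mt1 and Mt2 are shown because these neighbouring genes moved together and are known targets of the metal-responsive factor MTF1. Capitals mark matches, on either strand, to TGCGCNC and TGCACNC, cores of metal response elements.
Mt1, chr8:94178839-94179118 on the plus strand: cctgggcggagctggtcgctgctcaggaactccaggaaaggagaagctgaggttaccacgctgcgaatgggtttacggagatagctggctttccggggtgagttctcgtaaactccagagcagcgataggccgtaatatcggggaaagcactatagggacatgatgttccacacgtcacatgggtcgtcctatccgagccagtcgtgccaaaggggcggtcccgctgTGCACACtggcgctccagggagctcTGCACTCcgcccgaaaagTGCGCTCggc
Mt2, chr8:94172368-94172647 on the plus strand: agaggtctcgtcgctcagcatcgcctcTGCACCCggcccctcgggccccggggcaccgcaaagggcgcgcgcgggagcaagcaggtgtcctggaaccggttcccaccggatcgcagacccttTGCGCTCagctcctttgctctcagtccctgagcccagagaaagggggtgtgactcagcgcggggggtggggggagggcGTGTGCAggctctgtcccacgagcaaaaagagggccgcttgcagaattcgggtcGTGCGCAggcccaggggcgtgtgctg
The Mt1 window held 1 match to TGCGCNC and 2 to TGCACNC, and the Mt2 window 2 matches to each. Not all lie before the RefSeq start: matches begin 2 and 20 bases after it in Mt1 and 4 bases after it in Mt2. Of the 32851 windows, 14.4% held TGCGCNC, 11.7% held TGCACNC and 1.97% held both. These counts describe letters in the windows and not the use of a site.

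Beside the metallothioneins, 1 other gene on the list of glucocorticoid targets was called. Of 22 genes on that list, 3 rose (Mt2, Klf13 and Mt1) and 0 fell, with a median change of 0.98, and without day 2 replicate 1 there were 8 higher and 1 lower. Klf13, a Krüppel-like transcription factor, read 5.86, 5.24 and 4.95 and then 7.81 and 7.72, a rise of 2.41 ± 0.36 (adjusted p = 0.0233), and its other bright probe set gave 1.71. The medium control again lay close to day 3, at 7.91 and 7.96 for Klf13. Added without day 2 replicate 1 were Tsc22d3, the glucocorticoid-induced leucine zipper (3.35 ± 0.63, adjusted p = 0.0202), the steroid receptor chaperone gene Fkbp5 (2.40 ± 0.51, adjusted p = 0.0293) Klf9 (2.08 ± 0.36, adjusted p = 0.0151), Lcn2 (4.57 ± 0.59, adjusted p = 0.00637) and Saa3 (4.89 ± 1.17, adjusted p = 0.0422). The glucocorticoid receptor gene Nr3c1 was the member lower in that fit (-2.12 ± 0.38, adjusted p = 0.0167). With all arrays in the fit, the acute-phase genes Saa3 (5.04, 7.18 and 5.95, then 12.28 and 9.62) and Lcn2 (3.11 on all day 0 arrays, then 8.72 and 6.64) differed by 4.89 ± 1.32 (adjusted p = 0.139) and by at least 4.57 ± 1.07 (adjusted p = 0.0956), and were not called. Among the 29 metallothionein and antioxidant genes tested, the 2 metallothioneins rose, 0 fell and the median change was 0.08, and 4 were higher without day 2 replicate 1 (Mt1, Mt2, Cat and Sod2). Oxidative stress targets such as the thioredoxin reductase gene Txnrd1 (-2.23) and the haem oxygenase gene Hmox1 (-0.54) were not called.

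The amino acid response list held 1 called gene. Phgdh, the first enzyme of serine synthesis, read 11.02, 10.41 and 10.06 at day 0 and 12.06 and 12.69 at day 3 (1.88 ± 0.33, adjusted p = 0.0401). Its 3 other probe sets gave 1.94 to 2.40, and the medium control read 12.54 and 12.26. Of 35 genes tested on that list, 1 rose and 0 fell, with a median of 0.69, and without day 2 replicate 1 there were 5 higher and 0 lower. The 4 added were Nupr1 (2.56 ± 0.63), Eif4ebp1 (1.55 ± 0.30), Cebpb (1.17 ± 0.25) and the glutamine carrier gene Slc1a5 (0.97 ± 0.24). Atf4 itself differed by 1.41 ± 0.49 in the tested probe set (adjusted p = 0.229) and by -0.67 in another bright one. Fabp4, the fatty acid carrier of adipocytes and macrophages, rose from 8.82, 9.87 and 9.13 to 11.52 and 11.57 (2.27 ± 0.41, adjusted p = 0.0422), and a second probe set gave 3.32. The medium control read 11.10 on both arrays for Fabp4. It was the single call among 18 adipocyte genes, whose median change was 0.43, and without day 2 replicate 1 there were 2 higher (Fabp4 and Cebpb) and 1 lower (Zfp423).

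**Figure D3:**
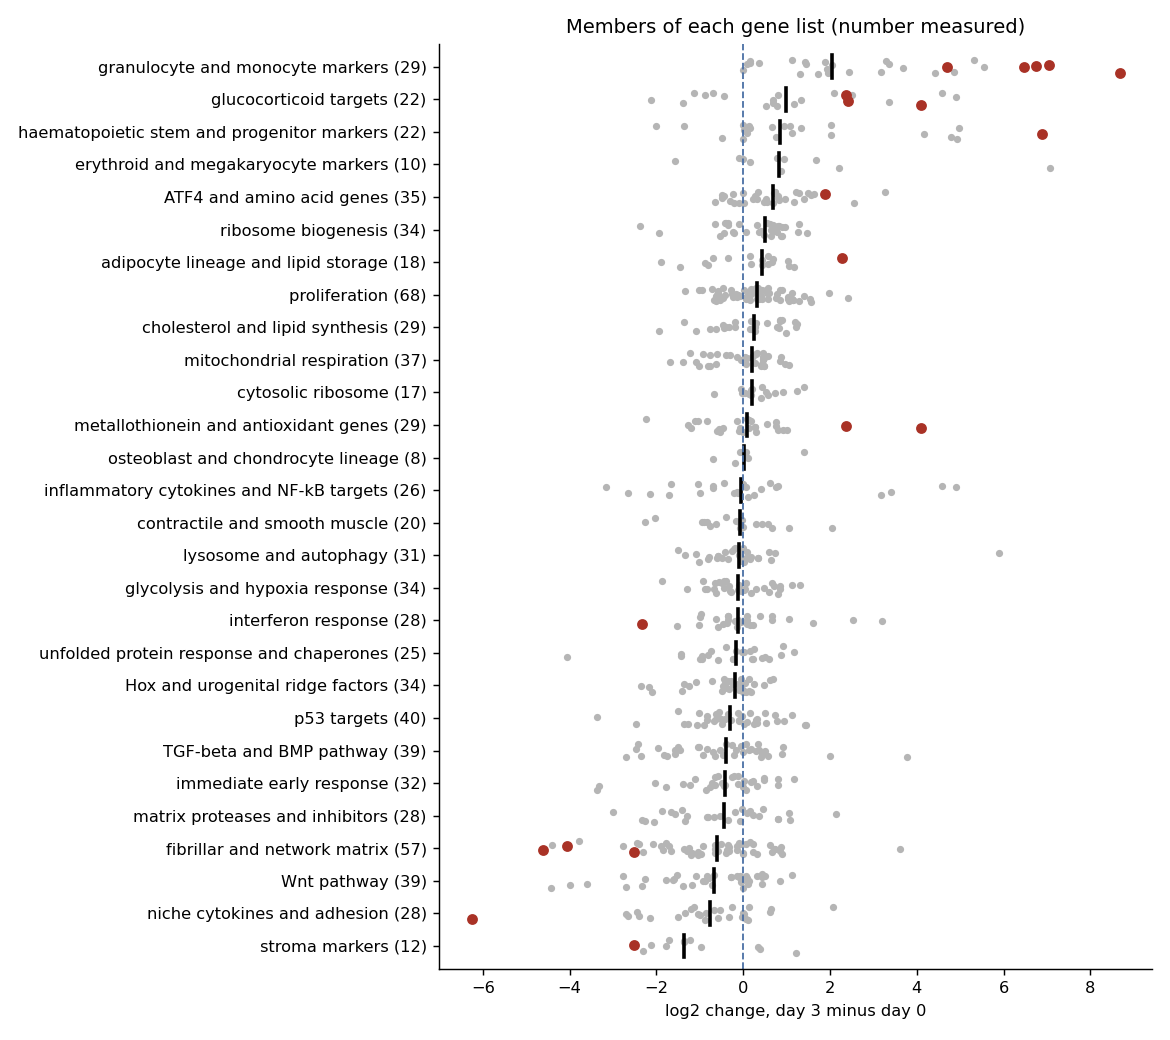
Log2 change from day 0 to day 3 (horizontal axis) of every tested member of the lists with at least 8 tested members, with the number tested after each list's name. Red points are called members, grey points are not called, black bars are list medians and the dashed line is the median of all genes. The granulocyte and monocyte list has the highest median (2.05) and the stroma list the lowest (-1.36). Many members of the former were at or near their lowest value at day 0 and had little room to fall.

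Genes of the stroma and its matrix held most of the called falls that lay on any list. Ccn3, a secreted matricellular protein of the CCN family that is also produced by niche cells, read 10.89, 12.02 and 9.98 at day 0 and 5.26 and 4.16 at day 3, the largest fall of all (-6.26 ± 0.87, adjusted p = 0.0233). A second probe set gave -6.52. The medium control, at 7.01 and 7.43, lay between, and day 3 did not differ from it by the test (-2.51 ± 0.96, adjusted p = 0.185). Ccn2, its relative that is induced by TGF-beta, read 10.12, 10.06 and 10.63 and then 12.31 and 14.22, the opposite direction. That difference of 3.00 ± 0.78 was not called (adjusted p = 0.128), but passed without day 2 replicate 1 (adjusted p = 0.0134), and the medium control stood at 13.62 and 13.61. Of the 3 other CCN genes tested, Ccn4 (-1.80), Ccn5 (-0.96) and Ccn1 (-0.01) were not called.

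Of 57 fibrillar and network matrix genes tested, 0 rose and 3 fell, with a median of -0.60. Abi3bp, a matrix-binding protein of mesenchymal cells, read 7.09, 7.71 and 5.91 at day 0 and was at the lowest value of 2.28 on both day 3 arrays, a fall of at least 4.62 (log2 change -4.62 ± 0.42, adjusted p = 0.00295). Dcn, the collagen-binding proteoglycan decorin, read 5.20, 5.12 and 5.07 and then 2.86 and 2.37 (-2.52 ± 0.22, adjusted p = 0.00295). Fbn2, the microfibril protein fibrillin 2, read 7.88, 8.04 and 7.06 and then 3.63 and 3.57 (-4.06 ± 0.57, adjusted p = 0.0233). All day 3 values of the 3 genes lay below all day 0 values, and the spread within each group was under 2 log2 units. The medium control was low as well, at 2.41 and 2.81 for Abi3bp, 2.80 and 2.78 for Dcn, and 4.98 and 5.85 for Fbn2. Day 3 did not pass against that control for Abi3bp (-0.33 ± 0.46, adjusted p = 0.82), Dcn (-0.18 ± 0.24, adjusted p = 0.809) or Fbn2 (-1.81 ± 0.62, adjusted p = 0.142). Without day 2 replicate 1, 8 matrix genes were lower and 1, the lubricin gene Prg4, higher. Those added among the lower ones were Prelp (-4.40 ± 0.93), Thbs1 (-2.77 ± 0.62), the collagen-modifying enzyme gene Plod2 (-2.40 ± 0.37), Fbln5 (-1.90 ± 0.40) and Col1a1 (-1.77 ± 0.42). With all arrays in the fit, Col1a1, the major collagen chain, read 8.85, 9.85 and 8.62 and then 7.29 and 7.38, without overlap, and was not called (adjusted p = 0.176).

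The stroma signal of the day 3 arrays was described with 14 markers. Of 12 tested, 0 rose and 1 fell (Dcn), and 9 of 12 had negative changes, with a median of -1.36, and 3 fell without day 2 replicate 1 (Dcn, Prrx1 and Col1a1). Summed linear signal of the 14 ran from 31710 to 60820 at day 0 and from 27740 to 34860 at day 3, so the ranges overlapped. That sum follows its brightest members, which on day 3 replicate 2 were Vim (13.46) and S100a4 (13.28). Both were also high on day 2 replicate 1 (13.22 and 13.17), where Sparc read 8.95 and Pdgfrb 8.91. The overlap is therefore no check of identity. Vim (0.35), Pdgfrb (0.39) and S100a4 (1.22) had positive changes that were not called.

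Thbd and Spry1, regulators at the cell surface and downstream of receptors, fell too. Thbd, which encodes the thrombin receptor thrombomodulin, read 6.69, 9.08 and 7.37 and then 3.47 and 3.73 (-4.12 ± 0.73, adjusted p = 0.0407), with the medium control at 3.22 and 2.94. Spry1, an inhibitor of receptor tyrosine kinase signalling, read 9.78, 8.56 and 8.29 and then 5.17 on both day 3 arrays (-3.70 ± 0.65, adjusted p = 0.0405). The same 5.17 was read on day 2 replicate 2, so the size may be a lower bound. For Spry1 the medium control stayed near day 0, at 8.63 and 8.51, and day 3 lay below it by the test (-3.40 ± 0.71, adjusted p = 0.0353). Thbd was low in the medium control (24 h) and at day 3 (72 h) alike, and Spry1 at day 3 but not in the medium control. On the day 1 co-culture arrays, also at 24 h, Spry1 read 6.79, 5.31 and 6.23 and Thbd 3.26, 3.26 and 3.33. Styk1, a receptor-like kinase gene, read 6.97 to 7.37 and then 3.68 and 3.80 (-3.47 ± 0.62, adjusted p = 0.0422), and also lay below the medium control (-3.14 ± 0.68, adjusted p = 0.041). Rerg, a small Ras-like GTPase gene, read 7.12 to 7.41 and then 4.53 and 2.48 (-3.78 ± 0.51, adjusted p = 0.0233), and its medium control values of 3.40 and 3.30 were close to day 3.

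Of the secreted and adhesive niche factors, Ccn3 alone was called. Of 28 genes on that list, 0 rose and 1 fell, 20 had negative and 7 positive changes, and the median was -0.78, and 3 fell without day 2 replicate 1. Cxcl12, the chemokine that retains stem cells in the marrow, read 12.86, 12.19 and 11.59 and then 10.11 and 9.54 (-2.39 ± 0.72, adjusted p = 0.177, and 0.0458 without day 2 replicate 1). Its other bright probe set gave -3.55. Vcam1, the adhesion molecule bound by integrins of blood cells, read 11.19, 11.60 and 10.44 and then 8.36 and 8.49 (-2.65 ± 1.02, adjusted p = 0.284, and 0.0114 without day 2 replicate 1). Neither gene's groups overlapped, and the medium control stayed within the day 0 range for both, at 12.10 and 12.28 for Cxcl12 and 10.89 and 10.72 for Vcam1. Against the medium control, day 3 differed by -2.37 ± 0.79 for Cxcl12 (adjusted p = 0.134) and by -2.38 ± 1.11 for Vcam1 (adjusted p = 0.282). Kitl, which encodes stem cell factor, read 11.40, 12.84 and 11.25 and then 10.47 and 10.77 (-1.21 ± 1.77, adjusted p = 0.884), also without overlap. Its other probe sets past the filter, both dimmer, gave -2.22 and -1.09. The Tie2 ligand gene Angpt1 (-2.71), the matrix glycoprotein gene Tnc (-2.45) and the cytokine gene Il6 (-2.16) were not called, and the adhesion molecule gene Alcam had the highest change on the list (2.08), also not called.

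Of 39 Wnt pathway genes, 0 were called in limma, with 0 higher and 7 lower at an unadjusted p under 0.05, beside 5.87% and 7.92% of all genes, and a median change of -0.67. Among the secreted Wnt antagonists, Sfrp2 read 10.08, 9.71 and 8.48 and then 5.61 and 4.36 (-4.43 ± 0.94, adjusted p = 0.0731), and Sfrp1 read 11.73, 13.66 and 11.88 and then 11.30 and 6.35 (-3.60 ± 1.90, adjusted p = 0.45). For both genes the day 3 arrays lay below all day 0 arrays. They were almost 5 log2 units apart for Sfrp1, whose replicate 1 lay just under the day 0 values. The ligand gene Wnt5a read 9.96, 10.95 and 10.18 and then 8.25 and 9.26 (-1.61 ± 1.34, adjusted p = 0.689), and its other probe sets gave -2.96 and 0.74. The Wnt agonist gene Rspo2 differed by -3.99 ± 1.45 (adjusted p = 0.255). Without day 2 replicate 1, Sfrp2 (adjusted p = 0.0272), the co-receptor gene Lrp6 (-2.76 ± 0.51, adjusted p = 0.0187) and Wnt5a (adjusted p = 0.0481) fell. Of 39 TGF-beta and BMP genes, 0 were called in limma, with 0 higher and 3 lower at an unadjusted p under 0.05, and 2 fell without day 2 replicate 1, Bmp6 (-2.48 ± 0.48) and Tgif1 (-2.42 ± 0.45), a share close to the 4.53% of all genes that fell in that fit. The matrix gene Tgfbi ran the other way, with 2.87, 7.30 and 5.46 and then 7.39 and 10.60 (3.78 ± 1.81, adjusted p = 0.395).

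Among the interferon genes, Irgm1, an immunity-related GTPase, fell from 4.75, 5.33 and 4.32 to 2.48 on both day 3 arrays (-2.32 ± 0.33, adjusted p = 0.0233), with the medium control at 3.24 and 2.83. The same 2.48 was read on day 1 replicate 2 and day 2 replicate 2, so the size may be a lower bound. Irgm1 was the single call among 28 tested. In the fit without day 2 replicate 1, 2 were higher, Ifitm1 (3.20 ± 0.29) and the immunoproteasome gene Psmb8 (2.54 ± 0.28), and 2 lower, Irgm1 and Ifit2 (-1.52 ± 0.30).

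The remaining large falls were in genes of varied function. Zfp874a, a zinc-finger gene, read 6.39, 7.18 and 6.84 and then 2.84 and 2.50 (-4.13 ± 0.35, adjusted p = 0.00295), and lay below the medium control as well (-3.04 ± 0.38, adjusted p = 0.00852). Zfr, a zinc-finger RNA-binding protein gene, read 11.89, 11.57 and 10.87 and then 7.13 and 8.84 (-3.46 ± 0.48, adjusted p = 0.0233), while its other probe sets, all dim, gave -0.41 to 0.61. Hccs, the enzyme that attaches haem to cytochrome c, read 10.71, 10.73 and 10.32 and then 7.80 and 6.68 (-3.35 ± 0.44, adjusted p = 0.0233). In all 3 genes the day 3 arrays lay at least 2 log2 units below every day 0 array. The ubiquitin ligase adaptor gene Klhl42 read 6.68 to 8.59 and then 3.41 and 3.57 (-4.11 ± 0.76, adjusted p = 0.0465). Ccser2 fell by 4.13 in the tested probe set (adjusted p = 0.0401), while its other probe sets gave 0.10 and -1.28.

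The other called falls were smaller, and the ones named here were picked after their values were seen. Genes of RNA handling among them were the splicing factor gene Sf3b1 (12.33, 12.55 and 12.35, then 10.23 and 10.91, -1.84 ± 0.29), the exosome helicase gene Mtrex (-1.38), the mitochondrial RNA nuclease gene Pnpt1 (-1.63), the poly-A-binding protein inhibitor gene Paip2 (-1.63) and Cbll1 (-2.29). Not all their probe sets fell alike. Others gave 0.44 for Mtrex, 1.09 for Pnpt1 (a dim one), -0.27 for Cbll1 (dim), and 0.09, -0.69 and -1.66 for Sf3b1. Nbn, a sensor of DNA double-strand breaks, read 8.61, 9.17 and 9.14 and then 6.71 and 6.84 (-2.20 ± 0.25, adjusted p = 0.0116), and Abraxas1, also of DNA repair, fell by 1.77 on the log2 scale. Genes of the cilium that fell were Alms1 (-1.49), Dync2li1 (-2.11) and Ttc30a1 (-1.93). The heparan sulfate enzyme gene Hs6st1 (-2.74), the Notch glycosyltransferase gene Poglut1 (-1.85), the adhesion gene Flrt3 (-2.72), the protocadherin gene Pcdh19 (-2.77), the junction protein gene Amot (-1.93) and the transcriptional repressor gene Rest (-1.84) fell too. No list covering these functions was tested.

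Smaller rises, also picked after their values were seen, lay partly in metabolism. Chdh, choline dehydrogenase of mitochondria, was at 2.28 on all day 0 and medium arrays and at 5.57 and 5.12 at day 3 (at least 3.06 ± 0.49, adjusted p = 0.0309). Slc25a29, a mitochondrial carrier of basic amino acids, read 3.66, 4.83 and 4.77 and then 7.32 and 7.36 (2.92 ± 0.46, adjusted p = 0.0309). The folate carrier gene Slc19a1 (1.78), the lysosomal amino acid transporter gene Slc66a1 (1.69), the coenzyme Q gene Coq4 (1.68), the mitochondrial ribosome gene Mrps17 (1.18) and the elongation factor kinase gene Eef2k (1.65) rose. So did the deubiquitinase-like gene Otulinl (2.50 ± 0.34), the ubiquitin ligase gene Rnf125 (2.35 ± 0.40), Trim47 (1.97 ± 0.28) and the DNA repair nuclease gene Ercc1 (1.17 ± 0.20).

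Cell division and stress lists held no call with all 13 arrays in the fit. Of 68 proliferation genes 0 were called in limma, with 3 higher and 2 lower at an unadjusted p under 0.05 and a median of 0.31. Mki67, the Ki-67 antigen of dividing cells, read 8.30, 7.65 and 7.17 and then 6.84 and 10.66 (1.04 ± 2.11, adjusted p = 0.944), so the day 3 arrays stood on opposite sides of day 0. The array with the high Mki67, replicate 2, also had the higher Ptprc (9.18 against 5.34) and the higher Gapdh 3' to 5' difference. The fit without day 2 replicate 1 gave the single proliferation call, the sliding clamp gene Pcna (-1.01 ± 0.20, adjusted p = 0.025). Of 40 p53 targets 0 were called in limma, with 2 higher and 4 lower at an unadjusted p under 0.05. The fit without day 2 replicate 1 called Ddb2 higher (1.42 ± 0.32, adjusted p = 0.0356) and Eda2r lower (-1.51 ± 0.22, adjusted p = 0.00883). Cdkn1a, the p21 cell cycle inhibitor, read 13.22, 13.57 and 13.64 and then 13.69 and 12.59 (-0.34 ± 0.74, adjusted p = 0.955). Limma called 0 of 26 inflammatory genes, with 5 higher and 3 lower at an unadjusted p under 0.05. Without day 2 replicate 1, 3 of these were called higher (Lcn2, Saa3 and Sod2) and 2 lower (Tnfaip6 and Vcam1). Of 28 matrix proteases and inhibitors it called 0 (3 higher and 5 lower unadjusted), and without that array 1 higher (Htra3) and 4 lower (Mmp14, Timp2, Timp3 and Plat). Of 25 chaperone genes it called 0 (1 and 4 unadjusted), and without that array 1 higher (Sec61b) and 3 lower (Hsp90b1, Canx and Pdia4). Of 37 mitochondrial genes it called 0 (4 and 1), then 3 higher (Ndufb9, Atp5d and Ndufa2) and 1 lower (Sdha). Of 34 ribosome biogenesis genes it called 0 (4 and 1), then 2 higher (Nhp2 and Srm), and of 34 Hox and urogenital ridge genes 0 (0 and 3), then 3 lower (Hoxc10, Foxd1 and Meis1). It called 0 of 32 immediate early genes (1 and 3), then Zfp36l1 lower, 0 of 34 glycolysis and hypoxia genes (2 and 1), then Pgam1 lower, and 0 of 20 contractile genes (1 and 1), then Tagln2 higher. For 29 cholesterol and lipid, 17 cytosolic ribosome and 8 osteoblast and chondrocyte genes limma gave 0 calls with and without that array, with 2 and 0, 3 and 0, and 1 and 0 unadjusted. Of 31 lysosomal genes it called 0 (1 and 1). Within the lysosomal list Ctsz, cathepsin Z, read 3.70, 3.70 and 4.33 and then 9.28 and 10.33 (5.89 ± 1.30, adjusted p = 0.0805), and its other probe sets gave 7.22 and 4.84. It was called without day 2 replicate 1 (adjusted p = 0.0044).

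Comparisons with the medium control and with day 1 use the same day 3 arrays and so their values are given only side by side with the first. The medium control was taken at 24 h and day 3 at 72 h, so time and LSK cells both differ between them. Against the medium control, 470 genes were called (3.85%), 189 higher and 281 lower at day 3. Against day 1 of co-culture, 1 gene was called (0.00819%), and 357 had an unadjusted p under 0.05. That gene was Wnt2, a secreted Wnt ligand, which read 5.19, 5.13 and 5.53 at day 1 and 2.71 and 2.69 at day 3 (-2.59 ± 0.26, adjusted p = 0.0363). Wnt2 was at 2.67 to 2.72 at day 0, so day 3 did not differ from day 0 (0.01 ± 0.26, adjusted p = 1). At day 1 Ctsg was at 7.06, 7.84 and 7.77 and Mpo at 5.61, 6.33 and 6.50, between the day 0 and day 3 values. The differences of day 3 from day 1, 3.72 for Ctsg (adjusted p = 0.895) and 4.13 for Mpo (adjusted p = 0.718), were not called. Clec10a was still at 2.28 on all day 1 arrays, and Lpxn read 2.61 to 2.63 there, within its day 0 range.

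**Figure D4:**
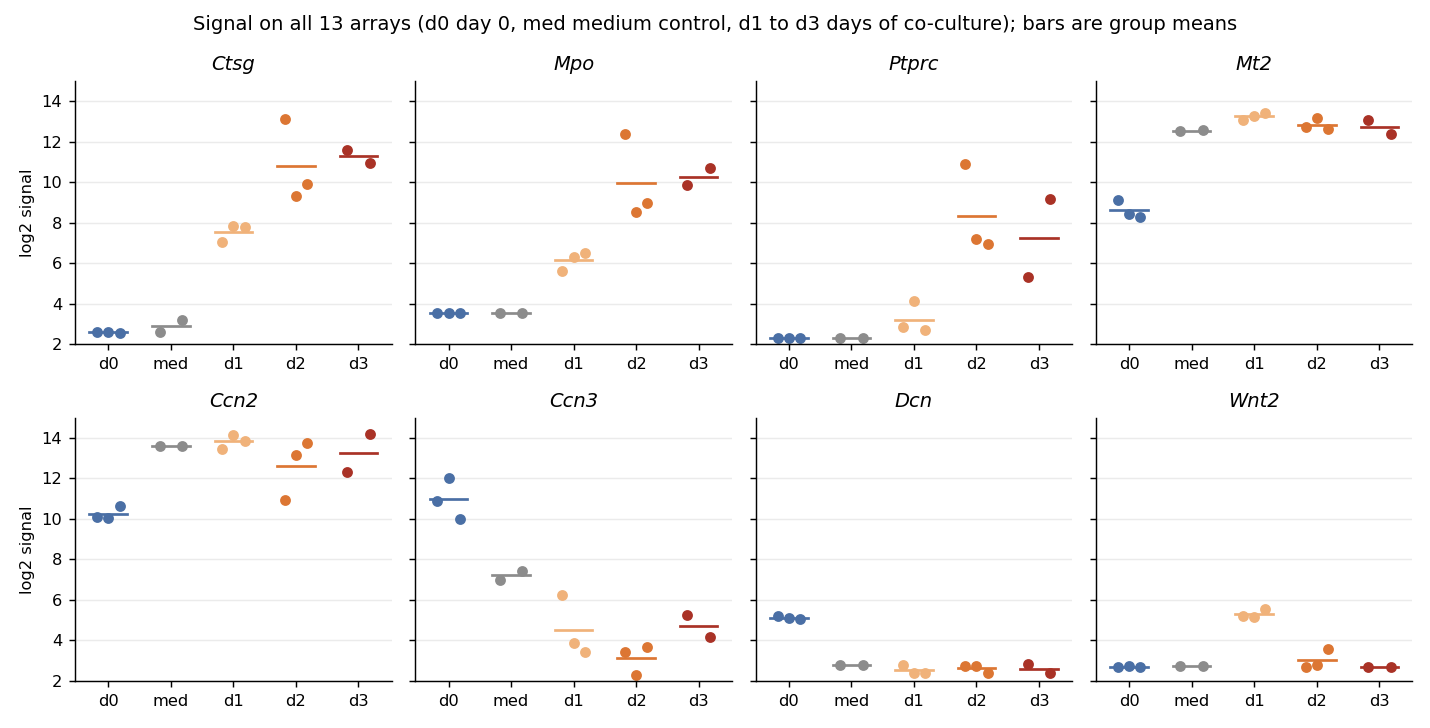
Log2 signal (vertical axis) of 8 genes on all 13 arrays: day 0 (d0), medium control (med) and days 1 to 3 of co-culture (d1 to d3), with a bar at each group mean. Ctsg and Mpo are near their lowest value without LSK cells and high at day 3, Mt2 and Ccn2 are as high in the medium control as at day 3, Dcn is as low there, and Wnt2 is high on the 3 day 1 arrays.

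The number of calls depended on single arrays. It was 55 without day 0 replicate 1, 4 without day 0 replicate 2, 55 without day 0 replicate 3, 226 without day 3 replicate 1 and 33 without day 3 replicate 2, against 100 with all arrays. Mt2, Abi3bp, Zfp874a and Dcn were called in each of these 5 fits, with adjusted p of at most 0.0301 for Abi3bp and 0.0141 for Mt2. Ctsg, Otulinl, Dnm3, Nbn, Chic1, Zfr and Rerg were called in 4 of the 5, and so was Clec10a, which entered the test only through day 3. The other blood cell genes lost their call more often, and their highest adjusted p was 0.144 for Chil3, 0.0977 for Mpo and 0.182 for Laptm5. Where a gene had further probe sets, these did not always move alike. Of the 100 called genes, 39 had other probe sets past the filter, 63 in all, of which 50 had the same sign and 26 were more than 50% as large, and 11 genes had at least 1 probe set of the opposite sign.

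**Figure D5:**
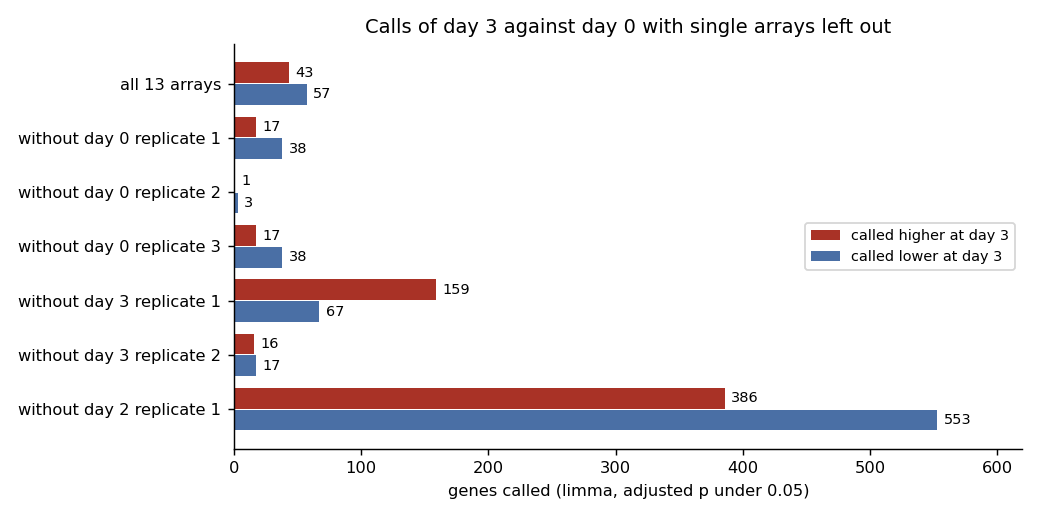
Number of genes called higher (red) and lower (blue) at day 3 against day 0 (horizontal axis) with all 13 arrays and with single arrays left out (vertical axis). Leaving out day 0 replicate 2 gave 1 higher and 3 lower, and leaving out day 2 replicate 1, which is in neither group, gave 386 higher and 553 lower.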

How the data were processed

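Stroma RNA was hybridised to Affymetrix whole-genome mouse arrays, and the authors deposited 1 table of log2 values for 45101 probe sets on 13 arrays. RMA and GCRMA are named without versions per the submitters' processing notes, and which of them made the table was not given in the sources used here. The deposited log2 values ran from 2.28, a common lowest value, to 15.7, so a gene at the lowest value has only a bound and its change is given as "at least". Array number limits the precision.

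Probe sets were named from GEO's platform annotation: 34958 had 1 gene symbol, 932 several and 9211 none. Of the 34958, 34897 matched the RefSeq table by symbol or gene ID. The 64 control probe sets were left out. Probe sets above 2.38, the pooled median, on at least 2 arrays were kept, and each gene was read from its brightest single-symbol probe set, which left 12205 genes. Limma 3.58.1 in R 4.3.3 fitted group means over all 13 arrays, with p-values adjusted by Benjamini-Hochberg over all genes and called under 0.05. The script was checked on simulated data with independent normal noise, the same spread on all arrays and no common lowest value. That check therefore does not cover genes at the lowest value or arrays that stand apart. Figures were drawn with Python 3.11.15 and matplotlib 3.10.9.

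Members and lists were chosen with earlier results of these data known. Named genes were the 12 largest called rises and falls, up to 4 called members of each list by size (or up to 2 with none called), and 14 fixed genes. Other genes are named beside the counts they belong to. Alternatives changed the filter, scaling, probe set rule, samples in the fit, variance model, array weights, replicate block and arrays. Chromosome positions and promoter sequences are RefSeq's, build GRCm38.p6.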

Additional observations from a re-analysis of the deposited data

Results flagged for a closer look

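Wnt2, a Wnt ligand gene, was at 2.71 and 2.69 at day 3 and at 5.19, 5.13 and 5.53 at day 1, so its change from day 0 differed between the days by -2.585 on the log2 scale (limma, adjusted p = 0.0363). It was the single call between these days with all arrays, where 357 genes had an unadjusted p under 0.05, and the count ran from 0 to 106 over the alternatives.

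The spiked-in poly-A RNAs, which are outside the gene comparison, averaged 5.911 log2 units more on the day 3 arrays (10.53 ± 2.11, SD, n = 2) than on the day 0 arrays (4.62 ± 1.24, SD, n = 3). The medium control gave 3.39 ± 0.10 (SD, n = 2) and day 1 gave 8.18 ± 1.44 (SD, n = 3). No group had 4 arrays, so single arrays could not be tested as outliers.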

How the results depend on the processing

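With 100 genes called at day 3 against day 0 (43 higher and 57 lower), the counts were 41 (18 and 23) under a stricter filter, 64 (25 and 39) after quantile normalization and 28 (11 and 17) after centring, which moved the median of all genes to 0.205. They were 26 (21 and 5) with the compared groups only and 167 (77 and 90) with array weights. With single arrays left out the count ran from 4 to 939, higher calls from 1 to 386 and lower calls from 3 to 553; where 1 day 3 array was left, it was assumed to vary like the other groups. No filter (94), trend with robust (79) and the mean of a gene's probe sets (106) stayed within 1.5 times. The causes were not tested.

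The 470 calls against the medium control became 237 under the stricter filter, 96 after centring, 771 with the compared groups only and 1571 with array weights, and ran from 0 to 1859 with arrays left out. At 0, without medium replicate 2, limma gave 1415 genes an unadjusted p under 0.05. The 1 call against day 1 became 11 with no filter, 3 with trend and robust and 10 with array weights, and ran from 0 to 106 with arrays left out. It became 0 in limma under the stricter filter, after quantile normalization, after centring and with the compared groups only, with 183, 312, 219 and 975 genes at an unadjusted p under 0.05.

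Deviations from the group mean gave r from -0.371 to 0.261 over 23 pairs of same-numbered arrays, against -0.379 to 0.381 for 44 others. Such deviations cancel within each group, which forces r of opposite sign in groups this small. These ranges therefore cannot decide whether the numbers pair the arrays. With the replicate block the counts were 4 (1 and 3) against day 0, 223 against the medium control and 0 against day 1 in limma (268 at an unadjusted p under 0.05).

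Of 84 named genes, 8 changed sign, none of them called with all arrays. Krt5 (0.06) gave -0.0045 and Cd34 (0.01) gave -0.41 with the block, and Cd34 gave -0.0945 with array weights. With single arrays left out, ranges were -0.0503 to 2.18 for Esam, -0.0504 to 1.20 for Kdr, -0.0401 to 3.997 for Cdc25c and -2.52 to 1.11 for Omd. They were -0.89 to 0.21 for Cdkn1a, -0.87 to 2.95 for Mki67 and -0.75 to 0.77 for Cd34. Signals near the lowest value limit the dim genes.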
